A study of Mus musculus with 12 samples.

Results

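The GATA axis of blood transcription factors was followed through its 10 members Gata1, Gata2, Zfpm1, Klf1, Nfe2, Tal1, Lmo2, Lyl1, Gfi1b and Mitf. They were found by gene symbol in the probe annotation of the array, where each of the 10 had 1 row among 41345, and all 10 lay among the 16860 genes whose signal was high enough to test. The cells came from the bone marrow of mice with floxed Tet2 alleles and a Cre recombinase that tamoxifen switches on (Tet2fl/fl;CreER). They were enriched for Kit, transduced with a MigR1 retrovirus for AML1-ETO and GFP (a leukaemia fusion protein and a fluorescent marker), replated in methylcellulose and then grown in suspension with SCF, IL-3 and IL-6. A 4-day treatment over 2 passages with 200 nM 4-hydroxytamoxifen made Tet2-/- cells, and ethanol left Tet2fl/fl controls, so every group carried AML1-ETO and CreER. Cells with GFP and CD16/32 and without CD11b or Gr1 were sorted at passage 2 and at passage 10, which gave 4 groups of 3 arrays: Tet2fl/fl p2, Tet2-/- p2, Tet2fl/fl p10 and Tet2-/- p10. The labels give no age of the mice and do not tell cultures or mice of the replicates apart, which means that a p-value here covers only the variation seen between these arrays, and that variation may be technical. Tet2 loss, 4-hydroxytamoxifen and Cre activity cannot be told apart in a genotype comparison.

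GATA factors are zinc finger proteins that bind short DNA motifs built around the letters GATA and set the fate of mast cells, basophils, eosinophils, erythroid cells and megakaryocytes. In textbook accounts Gata2 acts in progenitors and stays high in mast cells, while Gata1 takes over its sites as erythroid cells and megakaryocytes mature, with the cofactor FOG1 (gene Zfpm1). GATA proteins often bind DNA in a complex with a basic helix-loop-helix protein (Tal1 or its relative Lyl1) and the bridging protein Lmo2. Klf1 activates globin and other red cell genes, Nfe2 encodes the large subunit of a factor for globin genes and platelet formation, Gfi1b is a repressor of erythroid and megakaryocyte precursors, and Mitf drives mast cell genes.

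Start-site sequences are shown for the members that carry a full GATA motif, since the axis is known for control of its members by each other. RefSeq windows (build GRCm38.p6) were at hand for 8 of the 10 members, 12 windows in all, and the 250 bases before each start were searched on both strands. The GATA motif was searched as AGATAA or AGATAG and, with another first letter, as TGATAA or TGATAG. It occurred in 5 of the 12 windows, belonging to 4 genes (Klf1, Gfi1b, Tal1 and Mitf), against 26.5% of 32851 such windows over all genes. The letters CACCC, which KLF proteins recognise, occurred in 8 of the 12 windows and in 52% of all, and 0 of the GATA matches overlapped one. The E-box letters CACGTG or CATGTG, which MITF recognises, occurred in 0 of the 12 windows and in 17.6% of all, and the NF-E2 letters TGAGTCA in 0 of the 12 and in 4.46% of all. No window of Gata1, Gata2, Zfpm1 or Lyl1 held any of the 4 GATA strings in these 250 bases. The 5 windows with a match are printed 5′ to 3′ on the gene's strand, with the match in capitals (a TTATC in capitals is the motif read on the other strand):
Klf1, chr8:84901732-84901981, plus strand: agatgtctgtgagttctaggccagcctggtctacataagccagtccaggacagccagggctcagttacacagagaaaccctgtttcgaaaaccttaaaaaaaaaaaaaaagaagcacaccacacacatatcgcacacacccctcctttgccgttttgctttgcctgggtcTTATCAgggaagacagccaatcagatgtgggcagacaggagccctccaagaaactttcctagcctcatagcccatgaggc
Gfi1b, chr2:28621983-28622232, minus strand: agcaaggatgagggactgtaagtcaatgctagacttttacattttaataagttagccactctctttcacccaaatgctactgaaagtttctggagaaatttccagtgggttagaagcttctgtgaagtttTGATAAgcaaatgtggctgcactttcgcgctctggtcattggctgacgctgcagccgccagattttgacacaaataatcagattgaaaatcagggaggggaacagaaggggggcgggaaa
Tal1, chr4:115056176-115056425, plus strand: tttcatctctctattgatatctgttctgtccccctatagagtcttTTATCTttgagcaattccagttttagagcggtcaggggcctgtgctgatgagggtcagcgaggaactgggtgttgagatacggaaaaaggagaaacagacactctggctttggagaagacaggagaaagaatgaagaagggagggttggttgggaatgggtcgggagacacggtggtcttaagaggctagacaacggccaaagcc
Mitf, chr6:97929567-97929816, plus strand: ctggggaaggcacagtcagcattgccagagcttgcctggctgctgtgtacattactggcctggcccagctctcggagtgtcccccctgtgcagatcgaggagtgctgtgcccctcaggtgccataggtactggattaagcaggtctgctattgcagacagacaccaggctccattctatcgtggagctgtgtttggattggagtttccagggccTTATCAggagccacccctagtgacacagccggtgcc
Mitf, chr6:97991533-97991782, plus strand: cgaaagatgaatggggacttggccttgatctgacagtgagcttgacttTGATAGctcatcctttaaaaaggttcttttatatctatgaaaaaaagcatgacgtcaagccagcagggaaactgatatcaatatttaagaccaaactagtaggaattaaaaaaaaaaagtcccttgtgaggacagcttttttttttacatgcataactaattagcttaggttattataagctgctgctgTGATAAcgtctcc

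The match lies 80 bases before the start in Klf1, 120 in Gfi1b and 205 in this Tal1 window, counted from the match's first letter, and 36 bases before one start of Mitf and 202 and 13 before another. A match is a string of letters, not a measured binding site, and the array gives 1 value for a whole gene, so the starts of Mitf or Tal1 in use were not resolved.

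Values are log2 signals. The median of an array was 5.57 at the lowest and 5.68 at the highest. Over all rows, the correlation within a group was 0.984 to 0.991. The Tet2 row held 9.64 to 10.1 over the 12 arrays and differed between the genotypes by -0.03 at passage 2 and -0.05 at passage 10 (adjusted p = 0.952 and 0.921), and as 1 value for the whole gene it does not check the deletion. Of 10 red cell markers 3 had a row. Slc4a1 averaged 5.69, close to the array medians, Epb42 averaged 4.91, near the filter of log2 4.70, and Car1 lay below that filter at 4.17. Of 11 mast cell and basophil markers other than Gata2 all passed the filter, with list means of 10.3 to 11.5 over the arrays, and of 10 megakaryocyte markers 7 had a row and passed it, at 7.26 to 8.04. Values after ± are SDs of 3 arrays for levels and standard errors of the fit for differences. Differences were tested with limma in 1 model over all 12 arrays, and a gene was called at an adjusted p under 0.05 (Benjamini-Hochberg over all 16860 genes).

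**Figure D1:**
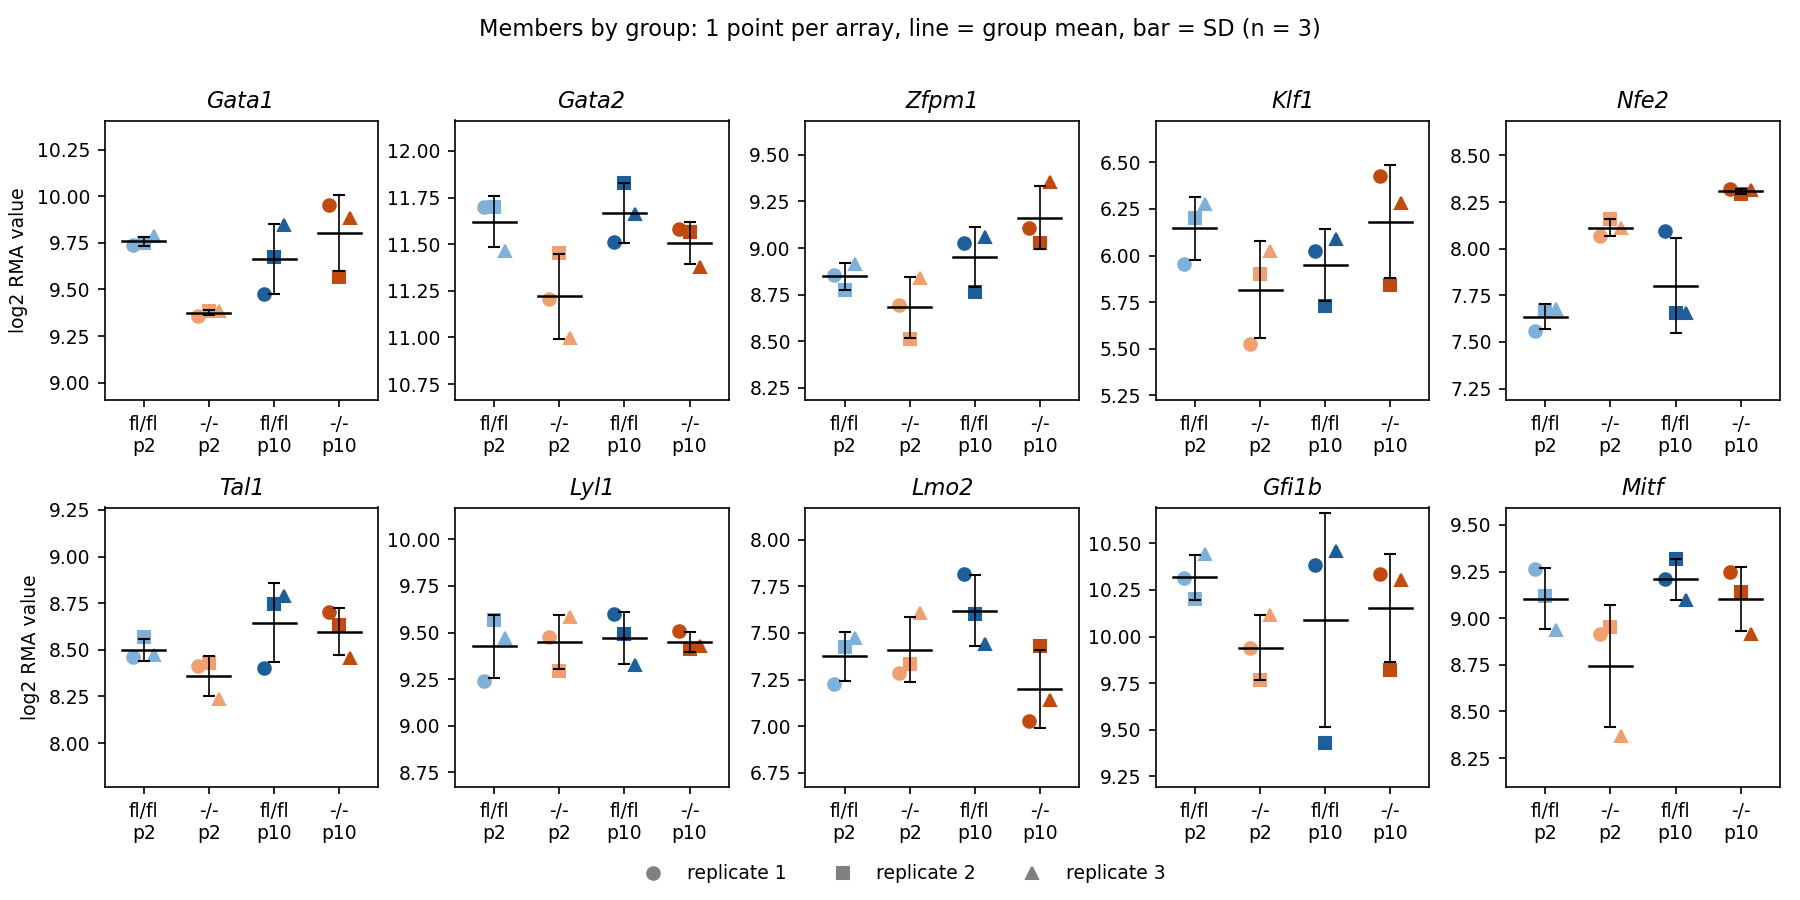
Log2 RMA value (y axis) of each member in each of the 12 arrays, by group on the x axis; symbols mark replicate numbers, lines group means and bars SDs of 3 arrays, and every panel spans the same height. The 6 Tet2-/- arrays of Nfe2 lie at 8.07 to 8.32, while 5 of the 6 Tet2fl/fl arrays lie at 7.56 to 7.68 and 1 at 8.10.

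Nfe2 was the member called by genotype in the main model, which did not use the replicate number. It read 7.56, 7.67 and 7.68 in the 3 Tet2fl/fl p2 arrays, 8.07, 8.16 and 8.11 in Tet2-/- p2, 8.10, 7.66 and 7.65 in Tet2fl/fl p10, and 8.32, 8.29 and 8.31 in Tet2-/- p10. At each passage all 3 Tet2-/- arrays were above all 3 Tet2fl/fl arrays, but across passages replicate 1 of Tet2fl/fl p10 lay within the range of Tet2-/- p2. Averaged over both passages Nfe2 rose by 0.49 ± 0.08, which is 1.41-fold (adjusted p = 0.0124), and it was the only one of the 10 members called, beside 1.72% of all genes called in that comparison, 0.658% higher and 1.06% lower. Of the 10 averages 7 were negative, against 51.4% over all genes, and 2 had an unadjusted p under 0.05 (Nfe2 and Gata2), against 16.1%. For no member were all 6 Tet2-/- arrays apart from all 6 Tet2fl/fl arrays, against 1.79% of all genes. Taken singly, neither passage reached the threshold: the difference was 0.48 ± 0.11 at passage 2 (adjusted p = 0.166), while passage 10 gave 0.51 ± 0.11 (adjusted p = 0.094). The change between them was 0.03 ± 0.15, with a 95% interval of -0.31 to 0.37.

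The call for Nfe2 in the average held in all 21 other fits, with adjusted p between 0.00156 and 0.0400, among them the fit with the replicate number as a block (0.0108). Without replicate 1 of Tet2fl/fl p10 the passage 10 difference was 0.65 and was called on its own (adjusted p = 0.0118). Within the order of group means for Nfe2, from Tet2fl/fl p2 through Tet2fl/fl p10 and Tet2-/- p2 to Tet2-/- p10, the first 2 neighbouring pairs overlapped and the last did not.

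The GATA genes Gata1 and Gata2 were not called in any genotype comparison without the replicate block. Gata1 read 9.74, 9.75 and 9.79 in Tet2fl/fl p2 and 9.36, 9.38 and 9.38 in Tet2-/- p2, then 9.47, 9.67 and 9.84 in Tet2fl/fl p10 and 9.95, 9.57 and 9.88 in Tet2-/- p10. Both passage 2 groups were tight and apart, while the passage 10 groups overlapped and spread over SDs of 0.186 and 0.204. The genotype difference of Gata1 was -0.38 ± 0.11 at passage 2 (adjusted p = 0.278), while passage 10 gave 0.14 ± 0.11 (adjusted p = 0.754). Its group means ran from Tet2-/- p2 (9.38 ± 0.013), which overlapped no neighbour, to Tet2fl/fl p10, Tet2fl/fl p2 and Tet2-/- p10, which did not differ beyond their spread.

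Gata2 had values of 11.70, 11.70 and 11.46 in Tet2fl/fl p2 and of 11.21, 11.45 and 11.00 in Tet2-/- p2. At passage 10 they were 11.51, 11.83 and 11.66 in Tet2fl/fl and 11.58, 11.56 and 11.38 in Tet2-/- cells. The passage 2 groups came close (11.46 against 11.45) without overlapping, and the passage 10 groups overlapped. The difference was -0.40 ± 0.13 at passage 2 (adjusted p = 0.332), while passage 10 gave -0.16 ± 0.13 (adjusted p = 0.744). Their average of -0.28 ± 0.09 had an adjusted p of 0.145, and 0.0461 with the replicate block. With the block 2 of 10 members were called, Nfe2 and Gata2, beside 5.41% of all genes (3.25% lower). Among the 21 other fits this was the only one that called Gata2, and the number as a random term gave 0.0805.

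Zfpm1, the gene of the GATA cofactor FOG1, read 8.85, 8.77 and 8.91 in Tet2fl/fl p2, 8.69, 8.51 and 8.84 in Tet2-/- p2, 9.02, 8.77 and 9.06 in Tet2fl/fl p10, and 9.11, 9.03 and 9.35 in Tet2-/- p10. The genotypes overlapped at both passages. Its difference was -0.16 ± 0.12 at passage 2 (adjusted p = 0.687), while passage 10 gave 0.21 ± 0.12 (adjusted p = 0.575), so that the average was 0.02 with a 95% interval of -0.16 to 0.21 (-0.013 with equal array medians).

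Of the complex that joins GATA proteins to E-box DNA, Tal1 and Lyl1 encode the alternative helix-loop-helix partners. Tal1 read 8.46, 8.57 and 8.47 in Tet2fl/fl p2 and 8.42, 8.43 and 8.24 in Tet2-/- p2, with 8.40, 8.74 and 8.79 in Tet2fl/fl p10 and 8.70, 8.63 and 8.46 in Tet2-/- p10. The passage 2 groups did not overlap and the passage 10 groups did, with differences of -0.14 ± 0.11 (adjusted p = 0.724) and -0.05 ± 0.11 (adjusted p = 0.937). Lyl1 had the narrowest range of the 10 members over the 12 arrays, 0.361, and its group means of 9.43, 9.45, 9.47 and 9.45 (in the order Tet2fl/fl p2, Tet2-/- p2, Tet2fl/fl p10, Tet2-/- p10) all overlapped. The 95% interval of its average genotype difference was -0.17 to 0.17.

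Lmo2, the gene of the bridging protein in the same complex, read 7.23, 7.42 and 7.47 in Tet2fl/fl p2, 7.29, 7.34 and 7.61 in Tet2-/- p2, 7.82, 7.60 and 7.44 in Tet2fl/fl p10, and 7.03, 7.43 and 7.14 in Tet2-/- p10. The groups overlapped at passage 2, where the difference was 0.04 ± 0.14 (adjusted p = 0.958, and -0.0086 with equal array medians). They came apart narrowly at passage 10 (7.44 against 7.43), where it was -0.42 ± 0.14 (adjusted p = 0.279). The change of -0.46 ± 0.19 between both passages was not called (adjusted p = 0.999).

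Klf1, the red cell activator, lay between 5.52 and 6.42 over the 12 arrays. The values were 5.96, 6.20 and 6.28 in Tet2fl/fl p2, 5.52, 5.90 and 6.02 in Tet2-/- p2, 6.03, 5.73 and 6.09 in Tet2fl/fl p10, and 6.42, 5.84 and 6.28 in Tet2-/- p10. All 4 groups overlapped their neighbours in the order of means. The genotype difference was -0.33 ± 0.17 at passage 2 (adjusted p = 0.576), while passage 10 gave 0.23 ± 0.17 (adjusted p = 0.716).

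Gfi1b, the repressor, read 10.32, 10.20 and 10.44 in Tet2fl/fl p2 and 9.94, 9.77 and 10.11 in Tet2-/- p2, which did not overlap. At passage 10 it read 10.38, 9.43 and 10.46 in Tet2fl/fl and 10.33, 9.82 and 10.30 in Tet2-/- cells, with replicate 2 the lowest in both genotypes. The difference was -0.38 ± 0.24 at passage 2 (adjusted p = 0.642). At passage 10 it was 0.06 ± 0.24 (adjusted p = 0.968), and -0.27 without replicate 2 of Tet2fl/fl p10. Mitf, the mast cell factor, read 9.26, 9.12 and 8.93 in Tet2fl/fl p2, 8.91, 8.95 and 8.37 in Tet2-/- p2, 9.21, 9.32 and 9.10 in Tet2fl/fl p10, and 9.25, 9.14 and 8.91 in Tet2-/- p10. Replicate 3 was its lowest array in every group, and the genotypes overlapped at both passages. Its differences were -0.36 ± 0.16 (adjusted p = 0.475) and -0.11 ± 0.16 (adjusted p = 0.888).

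**Figure D2:**
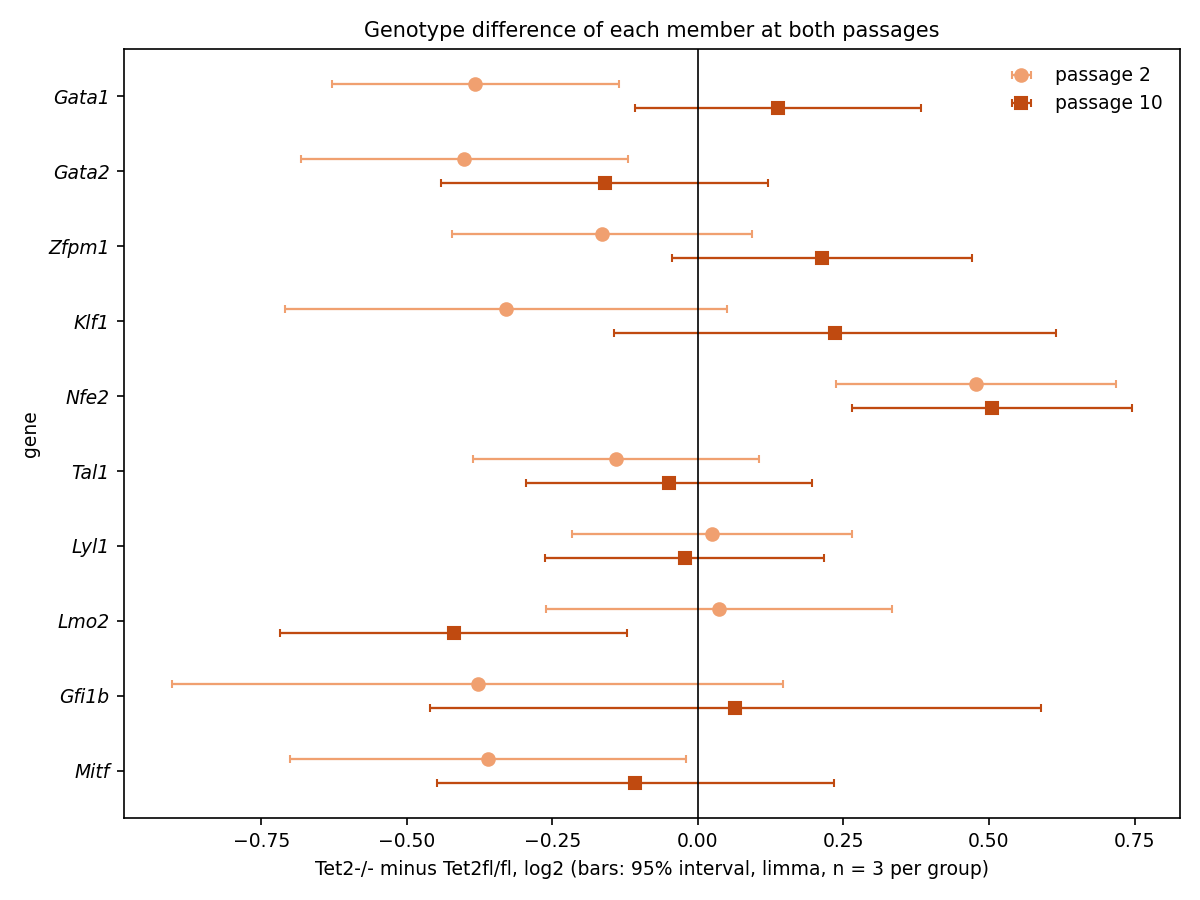
Tet2-/- minus Tet2fl/fl difference in log2 units (x axis) for each member (y axis) at passage 2 (circles) and passage 10 (squares); bars are 95% intervals from limma with 3 arrays per group. Nfe2 lies right of 0 at both passages (0.48 and 0.51), while Gata1 lies at -0.38 at passage 2 and 0.14 at passage 10.

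Counted over the members, 7 of 10 differences were negative at passage 2 with a median of -0.25, where 50.8% of all genes were negative and their median was 0.00. The groups did not overlap for 5 of the 10 (Gata1, Gata2, Tal1 and Gfi1b lower, Nfe2 higher), against 15.3% of all genes (8.17% lower, 7.12% higher). None of the 10 was called at passage 2 with limma, beside 0.00593% of all genes (0.409% with the block), and 4 had an unadjusted p under 0.05 (Gata1, Gata2, Nfe2 and Mitf), against 9.95%. At passage 10, 5 of 10 were negative (52.6% of all genes), with a median of 0.02 against -0.01 over all genes, and 2 did not overlap (Nfe2 higher, Lmo2 lower) against 16.4% (6.55% higher, 9.8% lower). None of the 10 was called there either, beside 0.225% of all genes (1.31% with the block), and Nfe2 and Lmo2 had an unadjusted p under 0.05, against 10.6%. Members were not independent of one another: across the 12 arrays, which share groups and replicate numbers, Gata2 correlated with Mitf at 0.902 and with Nfe2 at -0.514, given as a description.

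Passage was compared within each genotype. In Tet2fl/fl cells the differences of passage 10 from passage 2 ran from -0.23 (Gfi1b) to 0.25 (Lmo2), with 7 of 10 positive where 57.9% of all genes were. None was called by limma and 0 had an unadjusted p under 0.05, against 10.2% of all genes, of which 0% were called (0.0415% with the block). No member's 2 groups were apart, against 14.5% of all genes.

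In Tet2-/- cells 8 of 10 differences were positive, with a median of 0.26 against 0.04 over all genes, where 57.6% of genes were positive. These values use the same Tet2-/- p2 arrays as the genotype comparison at passage 2, so both share whatever is particular to those arrays. Zfpm1 differed by 0.48 ± 0.12, which is 1.40-fold, with an adjusted p of 0.0512 without the block and 0.0113 with it. Gata1 differed by 0.43 ± 0.11 (1.34-fold), with 0.0642 and 0.0437. Both were called with the replicate number as a fixed or a random term, with array weights, with trend and robust variances and with a filter at the 50th percentile, and not otherwise except for Zfpm1 with quantile normalization and without replicate 2 of Tet2fl/fl p10. Hence 2 of 10 members were called with the block beside 7.94% of all genes (3.26% higher), and 0 without it beside 2.98%, a share that fell to 0 genes when replicate 1 or 3 of Tet2-/- p2 or replicate 2 or 3 of Tet2-/- p10 was omitted. An unadjusted p under 0.05 was found for 4 of 10 (Gata1, Gata2, Zfpm1 and Mitf), against 21.6% of all genes. Mitf (0.36 ± 0.16, adjusted p = 0.212, with the block 0.0527), Gata2 (0.29 ± 0.13, adjusted p = 0.222) and Klf1 (0.37 ± 0.17, adjusted p = 0.247) had positive differences that were not called.

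The arrays of Gata1, Zfpm1, Tal1 and Nfe2 did not overlap between passage 2 and passage 10 in Tet2-/- cells, which is 4 of 10 members, all higher, against 28.3% of all genes (15.4% higher). Nfe2 differed there by 0.19 ± 0.11 (adjusted p = 0.330). Lyl1 stood at 0.00 ± 0.11 and Lmo2 at -0.21 ± 0.14 (adjusted p = 0.396).

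**Figure D3:**
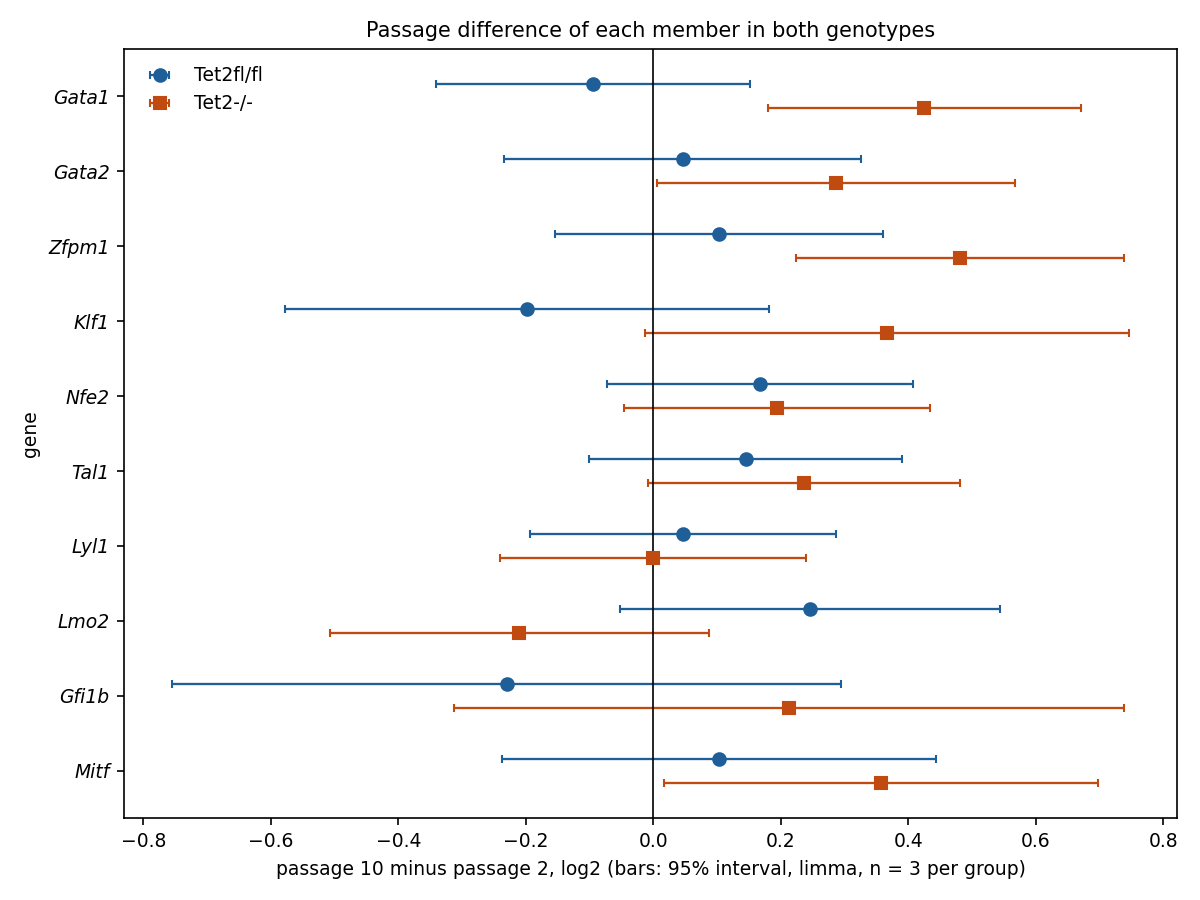
Passage 10 minus passage 2 in log2 units (x axis) for each member (y axis) in Tet2fl/fl (circles) and Tet2-/- cells (squares); bars are 95% intervals from limma with 3 arrays per group. In Tet2-/- cells Zfpm1 (0.48) and Gata1 (0.43) lie farthest right, and in Tet2fl/fl cells every interval crosses 0.

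Whether the genotype difference itself changed with passage was tested as an interaction. No member was called by limma, and 0% of all genes were (0.00593% with the block). The change was positive for 8 of 10 members, against 48.6% of all genes. Gata1 had a change of 0.52 ± 0.16 with a 95% interval of 0.17 to 0.87, Klf1 0.56 ± 0.24 and Zfpm1 0.38 ± 0.17. Each of these, and Lmo2, had an unadjusted p under 0.05 (0.00709, 0.0410, 0.0431 and 0.0361) and an adjusted p of 0.999, and 3.22% of all genes had an unadjusted p under 0.05. The reversal of sign between passages for Gata1, Zfpm1 and Klf1 is therefore not a called result.

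Arrays with the same replicate number deviated together, so differences within a number show what the block acts on. For Gata1 at passage 2 they were -0.38, -0.36 and -0.40 in replicates 1, 2 and 3. Nfe2 gave 0.51, 0.49 and 0.43 at passage 2 and 0.22, 0.64 and 0.66 at passage 10, positive in 6 of 6. Gata2 gave -0.50, -0.24 and -0.46 at passage 2 and 0.07, -0.26 and -0.29 at passage 10, negative in 5 of 6. Mitf was negative in 5 of 6 as well, with replicate 1 at passage 10 (0.04) the exception. Within Tet2-/- cells Zfpm1 was higher at passage 10 by 0.42, 0.51 and 0.51, and Gata1 by 0.59, 0.19 and 0.50.

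**Figure D4:**
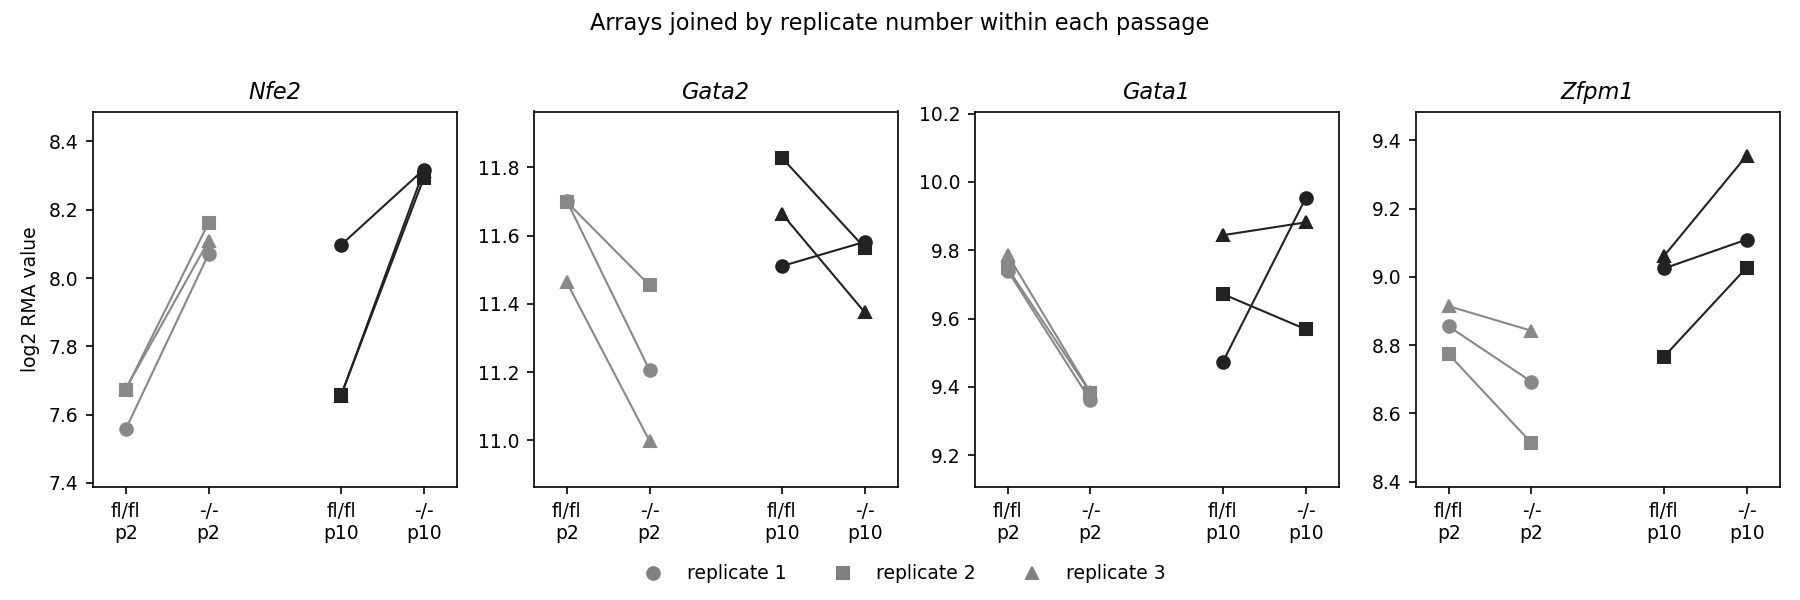
Log2 RMA value (y axis) of Nfe2, Gata2, Gata1 and Zfpm1 in Tet2fl/fl and Tet2-/- arrays, with lines joining arrays of the same replicate number at passage 2 (grey) and passage 10 (black). All 6 lines of Nfe2 go up and 5 of 6 lines of Gata2 go down, while those of Zfpm1 go down at passage 2 and up at passage 10.

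Partners and targets of the axis were described by lists chosen with earlier results of these arrays known. Of 36 genes for partners of the GATA and Tal1 proteins (such as Ldb1, Tcf3, Cbfa2t3, Runx1 and the small Maf proteins) 36 were measured and 0 were called by limma in any of the 6 comparisons without the block. Of all genes 0% to 2.98% were called, depending on the comparison, so a count of 0 is near that share. The average genotype difference had a median of 0.00 over them, as over all genes, and 9 of the 36 had an unadjusted p under 0.05, against 16.1% of all genes. The genes nearest to a call were Bach2, a repressor that pairs with small Maf proteins as Nfe2 does (-0.36 ± 0.10, adjusted p = 0.102), and Cebpa, a granulocyte factor (0.52 ± 0.16, adjusted p = 0.119). Cebpa was called in 1 of 21 other fits, without replicate 1 of Tet2-/- p10 (0.65, adjusted p = 0.0267). With the block Gfi1, the relative of Gfi1b, was lower in the average (-0.29, adjusted p = 0.0319), where 5.41% of all genes were called. With passage in Tet2-/- cells the helix-loop-helix gene Tcf4 was then lower (-0.69, adjusted p = 0.0241) and the small Maf gene Mafk higher (0.43, adjusted p = 0.0250), where 7.94% of all genes were called. Here and in the next lists, genes called with the block but not in the same model without it were named after their values were seen. Of 23 paralogs of the members 19 were measured. Without the block Nfe2l2, the oxidative stress relative of Nfe2, was the only one called: it rose from passage 2 to passage 10 in Tet2-/- cells by 0.34 ± 0.08 (adjusted p = 0.0430), where 2.98% of all genes were called. That call was kept by 9 of 22 other fits (adjusted p 0.0153 to 0.148) and was lost without any 1 of 10 arrays, all but replicates 1 and 3 of Tet2fl/fl p10. With the block 2 relatives of Mitf were called as well, beside 7.94% of all genes for passage in Tet2-/- cells and 5.41% for the average. Tfec was lower at passage 10 than at passage 2 in Tet2-/- cells (-2.46, adjusted p = 0.00881, without the block 0.0782), and Tfe3 was lower in the average (-0.28, adjusted p = 0.0205, without it 0.0690).

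Of 38 mast cell and basophil genes 36 were measured, and for the average of both genotype differences 6 fell and 0 rose, with a median of -0.21 and 25 of 36 negative. Over all genes 1.06% fell and 51.4% had a negative difference. The 6 were the serotonin transporter gene Slc6a4 (-2.73 ± 0.24, adjusted p = 0.000824), the integrin gene Itga2 (-2.24 ± 0.26, 0.0031), the adaptor gene Grap2 (-1.50 ± 0.21, 0.00785), the tryptase gene Tpsab1 (-1.43 ± 0.22, 0.0124), the prostaglandin synthase gene Hpgds (-0.91 ± 0.14, 0.0102) and the SCF receptor gene Kit (-0.82 ± 0.15, 0.022). The calls of the first 5 held in all 21 other fits, and that of Kit in 17 (adjusted p 0.00322 to 0.0553), lost without replicate 3 of Tet2fl/fl p2, replicate 1 or 2 of Tet2-/- p2 or replicate 2 of Tet2-/- p10. With the block 13 were lower and 1 (Itga2b) higher, beside 5.41% of all genes (3.25% lower). At passage 2 by itself 0 were called by limma without the block, beside 0.00593% of all genes. An unadjusted p under 0.05 was found for 12 of 36, against 9.95% of all genes. Of the 36, 29 were negative, against 50.8% of all genes, with a median of -0.26. With the block 3 were lower there (Slc6a4, Itga2 and Kit, with adjusted p of 0.0149, 0.0427 and 0.0418), beside 0.409% of all genes. At passage 10 Slc6a4 (-2.98, adjusted p = 0.00589) and Itga2 (-2.47, adjusted p = 0.0199) fell, beside 0.225% of all genes called, with a median of -0.11 over the list, and 7 were lower with the block, beside 1.31% of all genes. Both calls at passage 10 were lost in the fit of only the arrays compared (adjusted p = 0.144 and 0.233), and that of Itga2 also without replicate 2 or 3 of Tet2-/- p10 (0.105 and 0.103). With passage in Tet2-/- cells 0 were called by limma without the block, beside 2.98% of all genes. There 8 had an unadjusted p under 0.05, against 21.6% of all genes. With the block 4 were higher, beside 7.94% of all genes. The one with the smallest p was Slc18a2, a vesicle transporter of amines (0.76, adjusted p = 0.00881). Gata2 and Mitf, the members known for mast cell genes, had average differences of -0.28 (adjusted p = 0.145) and -0.23 (adjusted p = 0.326).

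Of 40 erythroid genes 28 had a row and 25 were measured. In the average 1 rose and 1 fell, beside 0.658% and 1.06% of all genes, with a median of -0.01: Tfr2, a transferrin receptor (0.51 ± 0.06, adjusted p = 0.00611), and Blvrb, a biliverdin reductase (-0.51 ± 0.11, adjusted p = 0.0478). Tfr2 read 7.28, 7.32 and 7.33 in Tet2fl/fl p2, 7.53, 7.50 and 7.45 in Tet2-/- p2, 7.23, 7.02 and 7.23 in Tet2fl/fl p10, and 7.96, 8.16 and 7.85 in Tet2-/- p10, so that no Tet2-/- array overlapped a Tet2fl/fl array. Its call held in all 21 other fits (adjusted p 0.00333 to 0.0231), and it rose at passage 10 as well (0.83 ± 0.09, adjusted p = 0.00546), a call lost in the fit of only the arrays compared (0.144). With passage in Tet2-/- cells Tfr2 rose by 0.49 ± 0.09 (adjusted p = 0.0289), a call that 16 of 22 other fits kept and that was lost in the fit of only the arrays compared and without replicate 1 or 3 of Tet2-/- p2 or any replicate of Tet2-/- p10 (adjusted p up to 0.0994 over all 22). The call of Blvrb held in 11 of 21 (adjusted p 0.0148 to 0.118) and was lost without any 1 of 9 arrays, the others being replicate 1 of Tet2fl/fl p2, replicate 3 of Tet2-/- p2 and replicate 1 of Tet2fl/fl p10. With the block the embryonic globin gene Hbb-y was higher in the average too (0.53, adjusted p = 0.0216, without it 0.124). So was Rhag, a red cell membrane gene (0.69, adjusted p = 0.0137, without it 0.158). That made 3 higher and 1 lower beside 5.41% of all genes. Rhag was also higher at passage 10 with the block (1.02, adjusted p = 0.0248, without it 0.265), beside 1.31% of all genes. No other alternative fit called Hbb-y or Rhag in these comparisons. With passage in Tet2-/- cells the block gave 4 higher (Urod, Icam4, Blvrb and Tfr2) and 1 lower (Tfrc, -0.67, adjusted p = 0.0273), beside 7.94% of all genes. Of 28 megakaryocyte genes 21 were measured and none was called in any comparison without the block, beside 0% to 2.98% of all genes by comparison. In the average their median was 0.04, and 3 of 21 had an unadjusted p under 0.05, against 16.1% of all genes. From passage 2 to passage 10 their median was 0.20 in Tet2fl/fl cells (17 of 21 positive) and 0.23 in Tet2-/- cells (18 of 21), against 0.03 and 0.04 over all genes, of which 57.9% and 57.6% were positive. With the block 3 were higher at passage 10 in Tet2-/- cells, beside 3.26% of all genes: the platelet integrin gene Itgb3 (1.07, adjusted p = 0.00513), the platelet chemokine gene Ppbp (1.73, adjusted p = 0.0372) and Rab27b (0.51, adjusted p = 0.0121), which stands in the mast cell list too. Nearest in the average were the thromboxane synthase gene Tbxas1 (0.26 ± 0.10, adjusted p = 0.208) and Itga2b, the other platelet integrin gene (0.35 ± 0.13, adjusted p = 0.213), which stands in the mast cell list too and was higher with the block (adjusted p = 0.0416).

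**Figure D5:**
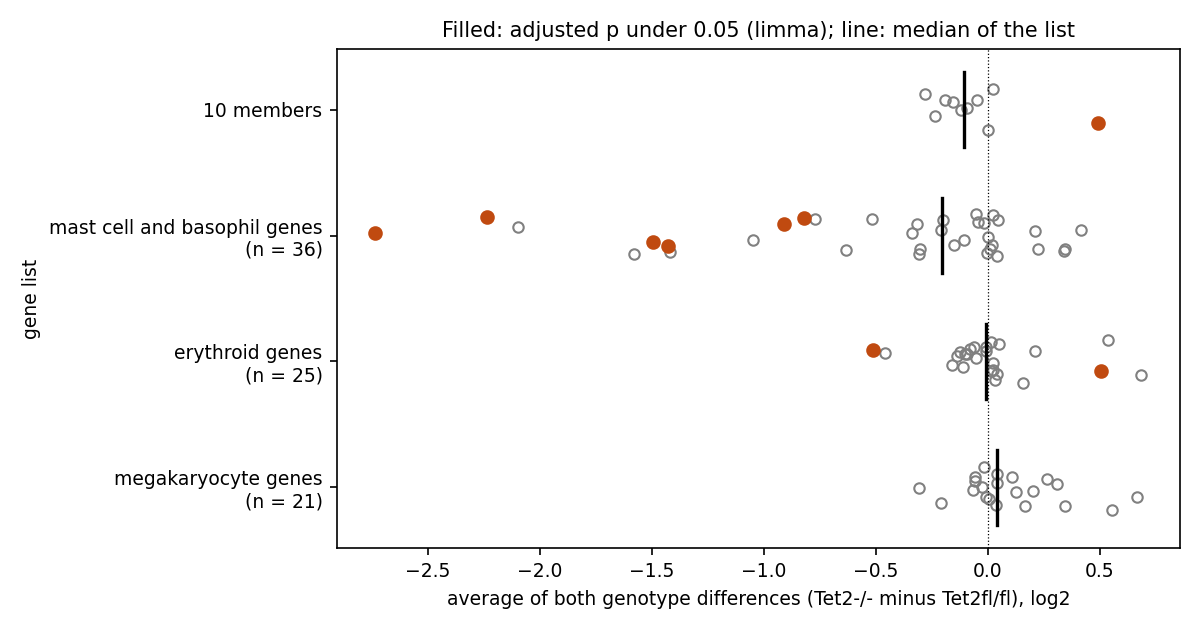
Average of both genotype differences in log2 units (x axis) for the 10 members and for the measured genes of 3 lists (y axis); each circle is a gene, filled where the adjusted p was under 0.05 in limma, and lines are medians. Filled circles are Nfe2 among the members, 6 mast cell and basophil genes on the left (Slc6a4 at -2.73), and Tfr2 and Blvrb among the erythroid genes.

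Marker levels of the cell types that such a culture could hold are set beside the members, as the mean over a list in each array. Eosinophil markers (6 of 8 measured) had mean levels of 8.87 to 9.13 in Tet2fl/fl p2, 7.41 to 7.60 in Tet2-/- p2, 7.24 to 9.17 in Tet2fl/fl p10 and 7.08 to 8.58 in Tet2-/- p10. Of these, Epx, Prg2, Prg3, Ccr3 and Il5ra had lower group means in Tet2-/- cells at both passages. Siglecf had higher ones (9.34, 9.41, 9.34 and 9.72 in that order). Mast cell and basophil markers (11 of 11) had 11.2 to 11.3, 10.7 to 10.9, 11.2 to 11.5 and 10.3 to 11.0 in the same order. These markers did not move as a whole. In that order the group means of Mcpt4 were 9.90, 8.58, 9.99 and 7.12. Those of Cpa3 were level at 13.34, 13.35, 13.37 and 13.37, and those of Prss34 were higher in Tet2-/- cells (10.07, 10.52, 10.26 and 10.64). Neutrophil markers (12 of 12) had 8.74 to 9.88, 8.77 to 9.48, 7.42 to 9.23 and 7.99 to 8.44, and megakaryocyte markers (7 of 10) 7.32 to 7.39, 7.26 to 7.45, 7.55 to 8.02 and 7.66 to 8.04. Monocyte and macrophage markers (7 of 8) lay at 8.31 to 8.71 over all 12 arrays, and dendritic cell markers (4 of 6) at 5.38 to 6.29. B cell markers (4 of 6) lay at 5.11 to 5.42, and T and NK cell markers (4 of 7) at 4.86 to 5.17. The part of these cell types in the values of Gata1, Gata2, Mitf and the other members was not tested. In these bulk samples fewer cells of a type and less RNA per cell cannot be told apart. Erythroid markers (2 of 10) stayed at 5.13 to 5.45 over all 12 arrays.

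The genes with the most similar pattern to each member over the 12 arrays were found by Pearson correlation, as a description in which the arrays share groups and replicate numbers. Genes with names of predicted or uncharacterised loci (such as Gm, Rik or LOC names) were left out, and only the highest positive correlations were taken. Nfe2 was followed most closely by Tle6 (0.940), Fut7 (0.937) and Bmt2 (0.936). Gata2 was followed by Tmem104 (0.963), Notch2 (0.949) and Alox8 (0.942), and Mitf by Lat (0.959), Wsb2 (0.924) and Kidins220 (0.916). For Gata1 the nearest was Jazf1 (0.911), for Zfpm1 Ccdc126 (0.955), for Gfi1b Ppm1k (0.943), for Tal1 Asph (0.927), for Lmo2 Rsl24d1 (0.913), for Lyl1 Mfng (0.877) and for Klf1 Bank1 (0.872).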

How the data were processed

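Total RNA of sorted cells (100 ng each) was hybridised to 12 one-colour mouse gene arrays. The deposited log2 values were made by the authors with RMA in Affymetrix Power Tools, per the submitters' processing notes; the sources used here give neither versions nor library file. RMA pulls arrays to a common distribution and can narrow differences of weak rows. Values were used as deposited. Rows whose mean reached the 30th percentile of all rows (log2 4.70) were kept, 28941 of 41345; symbols came from the probe annotation (23521 rows with 1 symbol, 1814 with several, 16010 with none) and were updated by gene ID for 23328. A gene with more than 1 row was read from its brightest, by mean. Groups came from the sample titles. The model was fitted with limma 3.58.1 in R 4.3.3, with a mean per group, 8 residual and 3.33 prior degrees of freedom, and two-sided moderated tests. The number of arrays limits the precision.

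Deviations from group means correlated at 0.201 to 0.517 where both arrays carried the same replicate number (18 pairs) and at -0.369 to 0.0532 otherwise (36 pairs), and the best match had the own number in 36 of 36 cases, so the numbers were taken to pair the arrays. The labels state no such pairing, so the main model had no block and its calls do not use the pairing. The fit with that block is given where it changes the call of a member or a list's count.

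All members were named. From each further list up to 6 genes called in any comparison were named, or else the 2 with the smallest p for the average. Members and lists were chosen with earlier results of these data known. Alternatives were other scalings, filters, variance models, array weights, blocks, row summaries, a fit restricted to both groups of a comparison, and the omission of each array in turn. The fit was tested on simulated data with known changes and independent errors, which lack the pairing by replicate number. Of 1.5-fold changes it recovered 89.6% in the average, 59.7% for genotype at passage 2 and 28.4% for the interaction. Each simulated comparison held 67 genes changed 1.5-fold, 67 changed 2-fold and 66 changed 4-fold, and many changed genes loosen the Benjamini-Hochberg cut. The arrays themselves gave 1 call over all genes at passage 2 and 0 for the interaction. These rates are therefore not the power of the comparisons made here, which may be lower. A member that was not called is therefore not shown to be unchanged.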

Additional observations from a re-analysis of the deposited data

Results flagged for a closer look

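Zfpm1 and Klf1 had genotype differences of opposite sign at both passages in every pair of arrays with the same replicate number. Zfpm1 was lower in Tet2-/- cells at passage 2 by pairs (-0.16, -0.26 and -0.07) and higher at passage 10 (0.08, 0.26 and 0.29), and its change between passages was 0.38 (adjusted p = 0.999 in limma). Klf1 gave -0.43, -0.30 and -0.26 and then 0.40, 0.12 and 0.19, with a change of 0.56 (adjusted p = 0.999). Of all 16860 genes, 206 (1.22%) went from negative in 3 pairs to positive in 3 pairs in this way, and 413 (2.45%) reversed in all pairs in either direction. Klf1 is a low row, with a mean at percentile 34.7 of the tested genes.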

How the results depend on the processing

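The count of members called for the average genotype difference was 1 and became 2 with the replicate block as a fixed term, which added Gata2. For passage in Tet2-/- cells the count of 0 became 2 (Gata1 and Zfpm1) with the fixed or random block, array weights, trend and robust variances or the filter at the 50th percentile, 1 (Zfpm1) with quantile normalization, and 0 to 1 when single arrays were left out. For genotype at passage 10 the count of 0 became 1 (Nfe2) with array weights and 0 to 1 when single arrays were left out. The block changed no other call of a member. The counts for genotype at passage 2, passage in Tet2fl/fl cells and the interaction stayed at 0 in every fit. The member levels had a mean of 8.85932 as deposited and with equal array medians and of 8.85778 with quantile normalization, and 1 of the 40 group levels moved by more than its SD under each, with largest shifts of 0.0372 and 0.0761.

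Over all genes the count for the average was 290, with 98 (without Tet2-/- p2 replicate 1) to 496 (without Tet2fl/fl p10 replicate 1) when single arrays were left out and 218 to 912 in other fits. At passage 10 it was 38, with 12 (without Tet2-/- p10 replicate 3) to 70 (replicate 1 of either genotype omitted) and 3 to 221, and at passage 2 it was 1, with 0 to 9 and 1 to 69. For passage in Tet2-/- cells it was 503, but 0 when replicate 1 or 3 of Tet2-/- p2 or replicate 2 or 3 of Tet2-/- p10 was omitted, 2 when replicate 1 of Tet2-/- p10 was, 238 when replicate 2 of Tet2fl/fl p2 was, and 0 to 1728 in other fits. The higher share of called genes went from 38.3% to 23.3% (average) and from 41.9% to 60.2% (passage in Tet2-/- cells) with equal array medians, and to 59.9% in the latter with quantile normalization.

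Of 1300 member differences under alternatives, 49 changed sign, each of a difference that was not called. With equal array medians these were Lmo2 at passage 2 (-0.0086), Lyl1 at passage 2 (-0.020), Zfpm1 (-0.013) and Lyl1 (-0.036) in the average and Lyl1 for passage in Tet2-/- cells (0.037). With quantile normalization they were Lmo2 at passage 2 (-0.012) and Lyl1 for passage in Tet2-/- cells (0.012). With array weights they were Lmo2 (-0.036) and Lyl1 (-0.018) at passage 2, and Lyl1 in the average (-0.015), for passage in Tet2fl/fl cells (-0.015) and for the interaction (0.0060). Leaving out single arrays gave ranges across 0 at passage 2 for Lmo2 (-0.063 to 0.10) and Lyl1 (-0.068 to 0.10), at passage 10 for Lyl1 (-0.10 to 0.042), Tal1 (-0.17 to 0.023) and Gfi1b (-0.27 to 0.25), and in the average for Klf1 (-0.11 to 0.037), Zfpm1 (-0.023 to 0.067) and Lyl1 (-0.046 to 0.040). They did so for passage in Tet2fl/fl cells for Gata1 (-0.19 to 0.00011), Gata2 (-0.034 to 0.12), Lyl1 (-0.046 to 0.12) and Gfi1b (-0.41 to 0.10), for passage in Tet2-/- cells for Lyl1 (-0.079 to 0.065), and for the interaction for Nfe2 (-0.046 to 0.17), Tal1 (-0.030 to 0.16) and Lyl1 (-0.13 to 0.045). The cause was not tested.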
